A study of Mus musculus with 2 samples.

Results

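Genes of mitosis and cytokinesis, the steps in which a cell separates its chromosomes and then divides, were compared between superficial zone (SFZ) cells of mouse articular cartilage and costal chondrocytes (CC). The set holds 40 genes of mitotic entry, the spindle, the kinetochore and cell cleavage, and a gene was measured where a probe set of the array was annotated to it alone. This held for 39 of the 40 genes, on 90 probe sets, out of 18193 genes on 34945 probe sets. The gene without such a probe set was *Ccnb1*, which encodes cyclin B1, so it has no value here. A probe set is a group of short oligonucleotides against part of a transcript.

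SFZ cells came from the surface layer of joint cartilage, and CC came from ribs after collagenase digestion. The donors of both were ICR mice at postnatal day 4, and both kinds of cell were cultured in DMEM with 10% FBS. The labels give no allele or added agent for either. RNA of each cell type was hybridized to 1 array, so a difference between the arrays has no replicate check, no test was run and each number below describes these 2 arrays. The values are MAS5 signals, linear intensities for which no source used here gives the scaling target. How many animals were pooled and how long the cells had been in culture are not given in the labels.

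Cyclin-dependent kinase 1 with its A- and B-type cyclins drives a cell into mitosis, and the Aurora and Polo kinases act beside it at spindle poles and chromosomes. Kinetochores, built on centromeres, attach chromosomes to the spindle, and the spindle checkpoint holds back the anaphase-promoting complex until every chromosome is attached. Destruction of cyclin B and securin then starts anaphase, after which the central spindle and a contractile ring split the cell. Most of these genes are transcribed only late in the cell cycle, so in bulk RNA their level follows how many cells are cycling, and *Mki67* is a common marker of proliferation for that reason. In cartilage, columns of dividing chondrocytes drive growth, whereas cells of the joint surface divide slowly. In such bulk samples fewer dividing cells and less RNA per dividing cell cannot be told apart.

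The late timing of this transcription is known to rest on 2 promoter elements. The cell cycle genes homology region (CHR) binds the MuvB complexes, which repress these genes in resting cells and, with B-MYB and FOXM1, activate them before mitosis. CCAAT boxes upstream of it bind the factor NF-Y. RefSeq promoter windows of GRCm38.p6, from 250 bases before to 50 after a transcript start, were found for 34 of the 40 genes, and both strands were searched for TTTGAA, the CHR core, and for CCAAT. Of these 34 genes 26 held TTTGAA, or 76.5%, against 18.5% of 17492 protein-coding genes. The share with CCAAT was 76.5%, against 42.3%, and 67.6% held both, against 7.4%. The windows below run from 120 bases before the start to base 30 of the transcript and are printed 5′ to 3′ on the strand of the gene. They were picked to show mitotic entry, anaphase, a spindle motor, chromosome structure and cytokinesis. Capitals mark the 2 motifs, which read TTCAAA and ATTGG where they lie on the opposite strand.
*Ccnb2*, chr9:70421525-70421674, minus strand: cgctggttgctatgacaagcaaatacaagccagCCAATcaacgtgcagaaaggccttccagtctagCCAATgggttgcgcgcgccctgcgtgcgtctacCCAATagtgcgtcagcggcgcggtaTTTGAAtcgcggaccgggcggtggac
*Cdk1*, chr10:69352883-69353032, minus strand: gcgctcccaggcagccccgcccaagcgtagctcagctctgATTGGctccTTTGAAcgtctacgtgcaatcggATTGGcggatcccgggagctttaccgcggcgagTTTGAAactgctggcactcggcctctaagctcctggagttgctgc
*Cdc20*, chr4:118437314-118437463, minus strand: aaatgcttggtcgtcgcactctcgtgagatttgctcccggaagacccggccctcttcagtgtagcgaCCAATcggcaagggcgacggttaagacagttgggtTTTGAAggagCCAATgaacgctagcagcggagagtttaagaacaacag
*Ube2c*, chr2:164769809-164769958, plus strand: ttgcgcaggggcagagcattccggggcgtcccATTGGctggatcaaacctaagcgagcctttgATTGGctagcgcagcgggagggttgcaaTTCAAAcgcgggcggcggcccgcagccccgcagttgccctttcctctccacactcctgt
*Kif11*, chr19:37376262-37376411, plus strand: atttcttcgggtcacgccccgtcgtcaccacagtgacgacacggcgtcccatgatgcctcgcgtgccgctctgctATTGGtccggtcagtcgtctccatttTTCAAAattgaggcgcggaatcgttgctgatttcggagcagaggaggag
*Top2a*, chr11:99024160-99024309, minus strand: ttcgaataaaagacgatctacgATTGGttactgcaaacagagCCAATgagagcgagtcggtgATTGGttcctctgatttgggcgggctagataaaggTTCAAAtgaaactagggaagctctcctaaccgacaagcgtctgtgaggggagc
*Racgap1*, chr15:99651627-99651776, minus strand: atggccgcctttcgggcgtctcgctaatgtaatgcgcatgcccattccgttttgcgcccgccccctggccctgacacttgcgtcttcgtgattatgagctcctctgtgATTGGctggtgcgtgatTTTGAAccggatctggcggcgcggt

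In each of these windows a CCAAT box precedes a CHR core that lies close to the transcript start. The CHR core nearest the start began within 50 bases of it in 24 of the 26 genes, with a median of 6 bases after it and a range from 103 bases before to 40 after. Over all protein-coding genes 4.58% had a CHR core so near, against 70.6% of the 34 genes. The nearest CCAAT box upstream of that core was a median of 35 bases away over 23 genes, and 14 of these distances were between 25 and 45 bases. Distances between neighbouring CCAAT boxes had a median of 34 bases over 35 distances in 19 genes, with equal distances within a gene counted once. The shortest was 3 bases, where boxes overlap. The E2F-type motif TTTNNCGC, usual in genes of DNA replication, was found in 5.88% of the 34 genes and in 7.16% of all protein-coding genes. It was in 20.4% of 54 other mitosis genes, 44.4% of 36 replication genes and 52.9% of 17 condensin and cohesin genes. The CHR core near the start was in 37% of those other mitosis genes, 11.1% of the replication genes and 35.3% of the condensin and cohesin genes. The motif TATAAA was in 2.94% of the 34 and 14.8% of all, and the CHR variant TTCGAA, a palindrome counted once, in 8.82% and 2.13%. Matches of different motifs were counted separately, also where they overlapped, and a match does not show binding. *Birc5*, *Mad2l1*, *Nuf2*, *Nusap1* and *Pttg1* had neither motif in these windows. Not every window sat at the 5′ end of the gene as annotated. In genome coordinates the offset was largest for *Kif2c*, at -3852 bases, and *Pttg1*, at -1482 bases. The sequence at that end was not searched for these genes. The window of *Nuf2*, which encodes a kinetochore protein, is shown for contrast and has no capitals.
*Nuf2*, chr1:169531435-169531584, minus strand: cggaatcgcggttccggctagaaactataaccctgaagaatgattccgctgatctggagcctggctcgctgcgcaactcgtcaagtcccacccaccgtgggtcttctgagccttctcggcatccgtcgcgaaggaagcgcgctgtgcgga

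**Figure D1:**
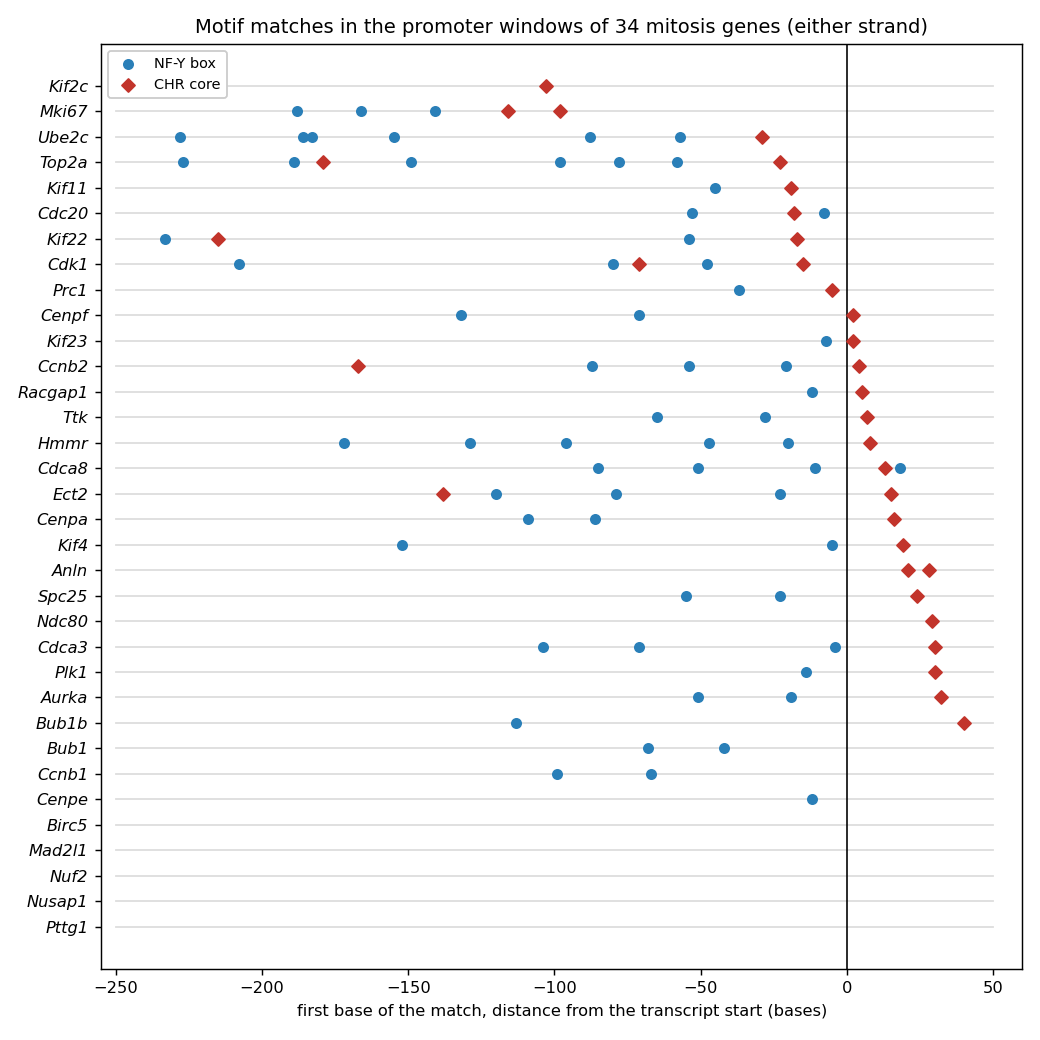
Positions of CHR cores (diamonds) and CCAAT boxes, which bind NF-Y (circles), in the promoter windows of 34 genes, on either strand. The horizontal axis is the distance in bases of the first base of a match from the transcript start at 0, for *Ect2* and *Prc1* in 1 of their 2 windows, and the diamonds gather around the start in 24 genes.

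All 39 measured genes were brighter in CC than in SFZ cells, and so were 8444 of the 12466 named genes above background. By the thresholds used for calls here, a signal over 100 on the brighter array and a ratio over 2, 36 of the 39 were higher in CC and none was higher in SFZ cells. That is 92.3%, while 5.41% of all 18193 genes passed in CC and 1.18% passed in SFZ cells. Among the 8724 genes with a CC signal over 100, which could have passed, 11.3% did so, and of the 37 mitosis genes with such a signal 36 did. For the 39 genes the log2 ratio of SFZ cells to CC had a median of -1.44, a CC signal 2.71 times that in SFZ cells. It was -0.21 over the 12466 genes above background. Since earlier results of these arrays were known when the genes were listed, these counts are descriptions.

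The CC/SFZ ratio lay between 2 and 3 for 22 genes and between 2 and 4 for 34, and the interquartile range of the log2 ratios ran from -1.74 to -1.18. Over all genes above background the interquartile range ran from -0.57 to 0.11. Its width was 0.57 for the mitosis genes and 0.57 for the 8724 genes with a CC signal over 100, so they were no more uniform than those. The background level, the 95th percentile of 84 odorant, taste and vomeronasal receptor probe sets, was 28.2 for SFZ cells and 26.2 for CC. All 39 genes were above it in CC, and *Ttk* and *Nuf2* were under it in SFZ cells, so that for these their ratios are given as bounds.

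**Figure D2:**
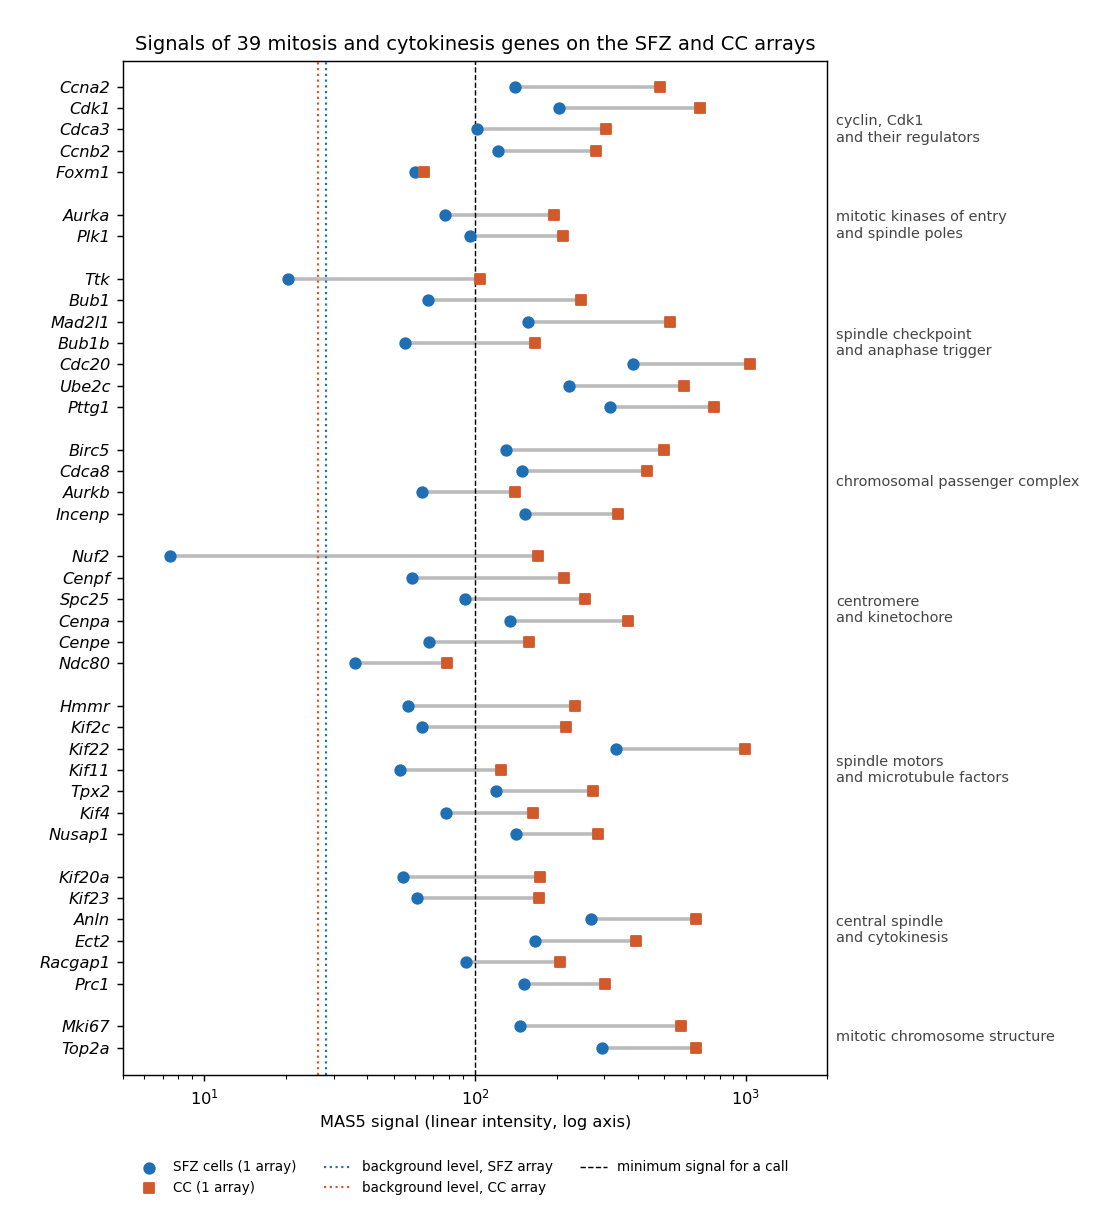
MAS5 signals of the 39 genes on a log axis, 1 SFZ array (circles) and 1 CC array (squares), ordered by role and, within a role, by ratio with signals raised to background. The square lies to the right of the circle for every gene. Background (28.2 and 26.2) is dotted and the signal of 100 is dashed.

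Of the genes that bring a cell into mitosis, *Cdk1*, encoding the kinase itself, was at 204 in SFZ cells against 678 in CC, a CC/SFZ ratio of 3.32. *Ccna2*, which encodes cyclin A2, was at 140 and 483, a ratio of 3.44. *Ccnb2*, for cyclin B2, was at 121 and 279, a ratio of 2.30, so the cyclin and kinase genes that were measured all passed in CC. *Cdca3*, an F-box-like protein linked to the destruction of WEE1, was at 101 and 305, a ratio of 3.01. The Polo kinase gene *Plk1* was at 95.4 and 211, and *Aurka*, whose kinase matures spindle poles, was at 77.4 and 196. Both passed, with ratios of 2.22 and 2.54.

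*Foxm1*, a transcription factor that activates many of the other genes, stood apart. On its brightest probe set it was at 59.9 in SFZ cells against 64.8 in CC, a ratio of 1.08, and both signals were under the minimum of 100. Its direction was not settled, as the ratio of SFZ over CC was above 1 after scaling to equal medians, with a log2 ratio of 0.08. A second *Foxm1* probe set was at 3.52 and 45.2, with the SFZ signal under background, and another was at 20.7, also under background, and 34.6. The fourth was under background on both arrays. No *Foxm1* probe set reached a signal of 100 on either array.

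The genes of the spindle checkpoint and of anaphase all passed in CC, 7 of 7. *Bub1*, a checkpoint kinase at kinetochores, was at 67.1 in SFZ cells against 246 in CC, a ratio of 3.67. *Bub1b*, encoding its relative BUBR1, was at 55.0 and 166, and *Mad2l1*, encoding the checkpoint protein MAD2, at 156 and 527. These are ratios of 3.02 and 3.37. *Ttk*, the kinase that starts checkpoint signaling, was at 20.4 and 104. With the SFZ signal raised to background it was at least 3.70-fold higher in CC. The genes that act on the anaphase-promoting complex gave somewhat smaller ratios. Its activator *Cdc20* was at 383 and 1037, its ubiquitin-conjugating enzyme *Ube2c* at 221 and 593, and its substrate *Pttg1*, or securin, at 315 and 764. The ratios of these 3 genes were 2.71, 2.68 and 2.43. A second *Cdc20* probe set, at 254 and 471, had a ratio of 1.86 and did not pass. Another, at 24.5, under background, and 89.7, did not pass either.

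The chromosomal passenger complex, which corrects faulty attachments and later moves to the cleavage site, was higher in CC for all 4 subunits. *Birc5*, encoding survivin, was at 130 in SFZ cells against 498 in CC, a ratio of 3.82, and *Cdca8*, encoding borealin, was at 149 and 430, a ratio of 2.88. The kinase subunit *Aurkb* was at 63.4 and 141 and the scaffold *Incenp* at 153 and 337, with ratios of 2.22 and 2.21. The subunits thus fell between 2.21 and 3.82, although they work in a single complex, and with 1 array per cell type this spread cannot be told from array noise.

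Of 6 centromere and kinetochore genes 5 passed in CC. *Nuf2* was at 7.49 in SFZ cells against 170 in CC, at least 6.04-fold higher in CC, the largest bound of the 39 genes. Its partner in the microtubule-binding complex, *Ndc80*, was at 36.0 and 78.4, and *Spc25*, of the same complex, was at 91.5 and 255. *Ndc80* had a ratio of 2.17 but did not pass, because its CC signal was under 100. *Cenpa*, the histone H3 variant that marks centromeres, was at 135 and 366, a ratio of 2.71. *Cenpf*, a large protein of the outer kinetochore, was at 58.2 and 213, and the motor gene *Cenpe* was at 67.3 and 158. Their ratios were 3.67 and 2.35.

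All 7 genes of spindle motors and microtubule factors passed in CC. *Hmmr*, encoding a spindle protein also known as a hyaluronan receptor, was at 56.4 and 234, a ratio of 4.15, the largest among genes above background on both arrays. Among the kinesins, *Kif2c*, which takes microtubules apart at kinetochores, was at 63.8 and 218, and *Kif22*, which pushes chromosome arms, was at 332 and 997. *Kif11*, the motor that pushes spindle poles apart, was at 52.7 and 125, and the chromokinesin *Kif4* was at 78.1 and 164. The kinesin ratios thus ran from 2.10 for *Kif4* to 3.41 for *Kif2c*. *Tpx2*, a spindle assembly factor and activator of Aurora A, was at 119 and 273, a ratio of 2.29. *Nusap1*, a microtubule-bundling protein, was at 142 and 285, a ratio of 2.01 that is just over the threshold.

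Of 6 genes of the central spindle and cytokinesis 5 passed in CC. *Kif20a*, a kinesin of the central spindle, was at 53.9 and 173, a ratio of 3.21. The centralspindlin genes *Kif23* and *Racgap1* were at 60.9 and 171 and at 92.4 and 207, ratios of 2.82 and 2.23. *Ect2*, the exchange factor that they recruit to activate RhoA, was at 166 and 393, and *Anln*, the scaffold anillin of the contractile ring, was at 269 and 655. Both had ratios near 2.4, at 2.37 and 2.44. *Prc1*, which cross-links microtubules of the central spindle, was at 151 and 301 on its brightest probe set, a ratio of 1.99 just under the threshold. A second *Prc1* probe set, at 96.0 and 211, had a ratio of 2.20 and passed. Both genes of chromosome structure passed. *Mki67*, which coats mitotic chromosomes, was at 146 and 576, a ratio of 3.94, and *Top2a*, the topoisomerase that untangles sister DNA, was at 295 and 655, a ratio of 2.22.

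**Figure D3:**
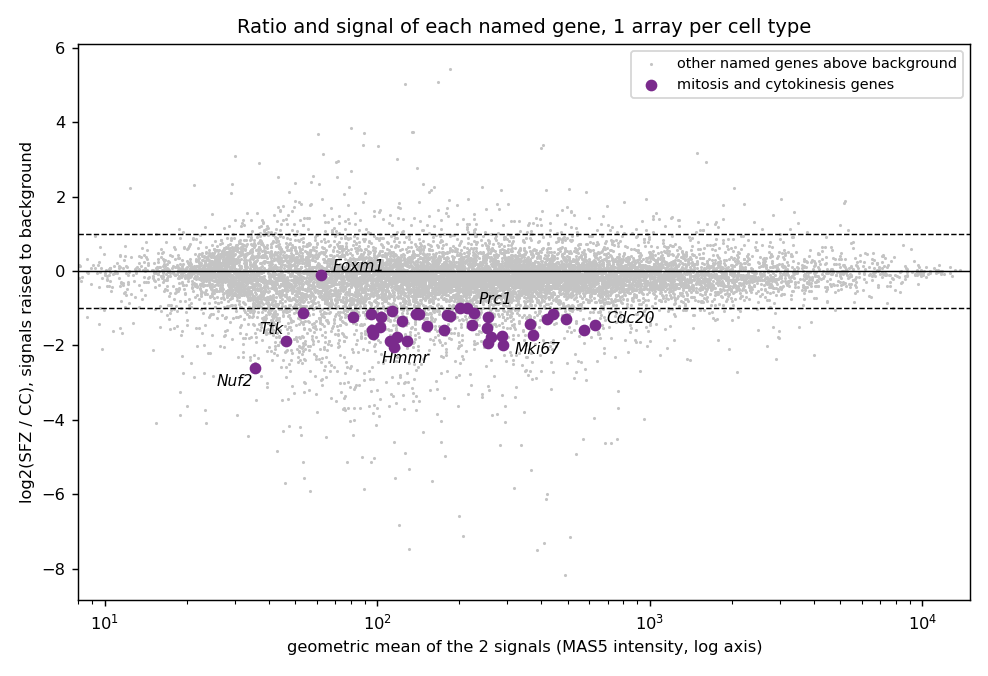
Log2 ratio of SFZ cells over CC, with signals raised to background, against the geometric mean of both signals, on a log axis. Grey points are the other named genes above background and dark points are the 39 genes, which lie between -2.59 for *Nuf2*, a bound, and -0.11 for *Foxm1*, and 2-fold differences are dashed.

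Separate probe sets of a gene mostly gave the same direction. Of the 90 probe sets 74 were above background on at least 1 array, and 69 of these were brighter in CC. By the thresholds 50 of the 90 passed in CC, or 55.6%, against 3.58% of all 45037 probe sets other than controls, and none passed in SFZ cells. Of 22 genes with several probe sets above background, 18 had every one of them brighter in CC. The 3 probe sets of *Cdca8* gave ratios of 2.88, 2.98 and 2.99, and those of *Kif22* gave 3.01, 3.14 and, with the SFZ signal raised to background, at least 2.63. The 5 probe sets that were brighter in SFZ cells belonged to *Tpx2*, *Cdca3*, *Cenpf* and *Top2a*.

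*Tpx2* had probe sets well above background that went in opposite directions. Its probe sets designed from the first of 2 cDNA sequences were at 119 and 273 and at 27.8, under background, and 92.4, toward CC. Those designed from the other were at 151 and 114 and at 156 and 86.9, toward SFZ cells, with SFZ/CC ratios of 1.33 and 1.80. A probe set of *Cdca3* at 36.5 and 27.6 and one of *Cenpf* at 32.9 and 22.9 were close to background. The set of *Top2a* at 33.1 and 32.5 was close to it as well. Which transcripts the divergent *Tpx2* probe sets detect was not tested.

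**Figure D4:**
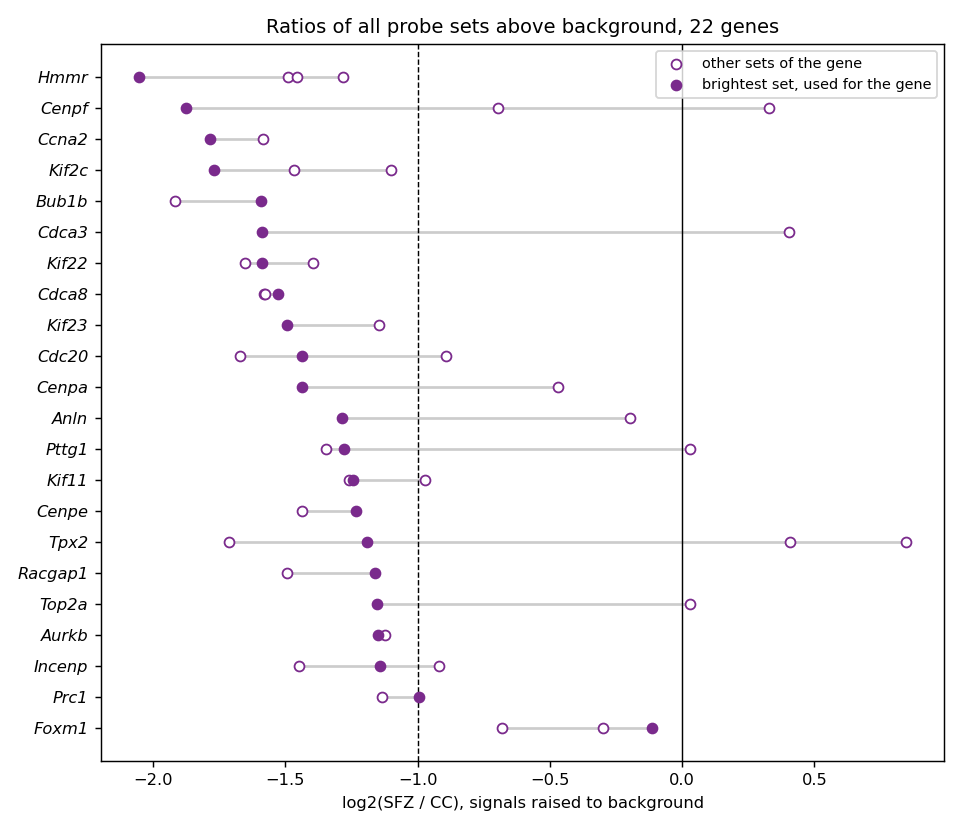
Log2 ratios of SFZ cells over CC, with signals raised to background, for each probe set above background of the 22 genes with several. Filled points are the brightest probe set, which stands for the gene, open points are the others, and the dashed line marks a CC/SFZ ratio of 2. Open points of *Tpx2*, *Cdca3*, *Cenpf* and *Top2a* lie right of 0, and so does 1 of *Pttg1* whose SFZ signal was raised to background.

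Other parts of the cell cycle were measured with lists of genes outside the 39. Of 68 other mitosis genes 21 passed in CC and none in SFZ cells, with a median log2 ratio of -0.97 over the 65 above background. *Melk*, a mitotic kinase, was at 24.9 in SFZ cells, under background, and 166 in CC, and the centromere gene *Cenpi* at 19.0 and 123, whereas the cytokinesis kinase *Cit* was at 64.5 and 35.8 and *Spag5*, a spindle protein, at 108 and 68.0. Of 43 genes of DNA replication and S phase 19 passed in CC and none in SFZ cells, with a median of -1.01. There *Uhrf1*, which maintains DNA methylation, was at 41.7 and 339 and the thymidine kinase *Tk1* at 39.1 and 235. The origin gene *Orc1*, at 75.2 and 53.5, and *Mcm2*, at 417 and 399, did not pass. *Mcm2* was the exception in the replicative helicase, whose other subunits *Mcm3*, *Mcm4*, *Mcm5*, *Mcm6* and *Mcm7* all passed in CC with ratios from 2.05 to 4.09.

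Genes of the anaphase-promoting complex itself were near the level of all genes. Their list holds subunits, which are made through the whole cycle, and *Fzr1*, encoding an activator, at 138 and 187. None of 15 passed in either direction, and their log2 ratios ran from -0.60 for *Anapc2*, at 417 and 632, to 0.21 for *Anapc16*, at 1334 and 1151. *Cdc16* was at 1354 and 1861 and *Anapc1* at 573 and 597. Their median of -0.37 lies beside -1.44 for the 39 genes, among which *Cdc20* and *Ube2c* act on this same complex. Of 22 condensin and cohesin genes 6 passed in CC. *Ncaph*, a condensin subunit, was at 64.2 and 255 and *Sgo2a*, a protector of centromeric cohesion, at 33.3 and 125. The cohesin loader *Nipbl* was at 368 and 402 and the cohesin release factor *Wapl* at 703 and 643.

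Of 15 G1 cyclins, their kinases and CDK inhibitors 2 passed in CC, *Ccnd1*, encoding cyclin D1, at 293 and 1116, and *Ccne2*, encoding cyclin E2, at 68.6 and 199.7. The inhibitors *Cdkn1b* and *Cdkn1c* were close to equal, at 682 and 687 and at 6253 and 6048. Of 22 regulators of mitotic transcription 3 passed in CC, among them the repressor *E2f8* at 65.6 and 207. *E2f7* was at 28.9 and 96.9, under the minimum, *E2f5* at 328 and 353 and *E2f1* at 100.5 and 87.8. None of 10 housekeeping genes passed in either direction, with a median log2 ratio of -0.19.

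**Figure D5:**
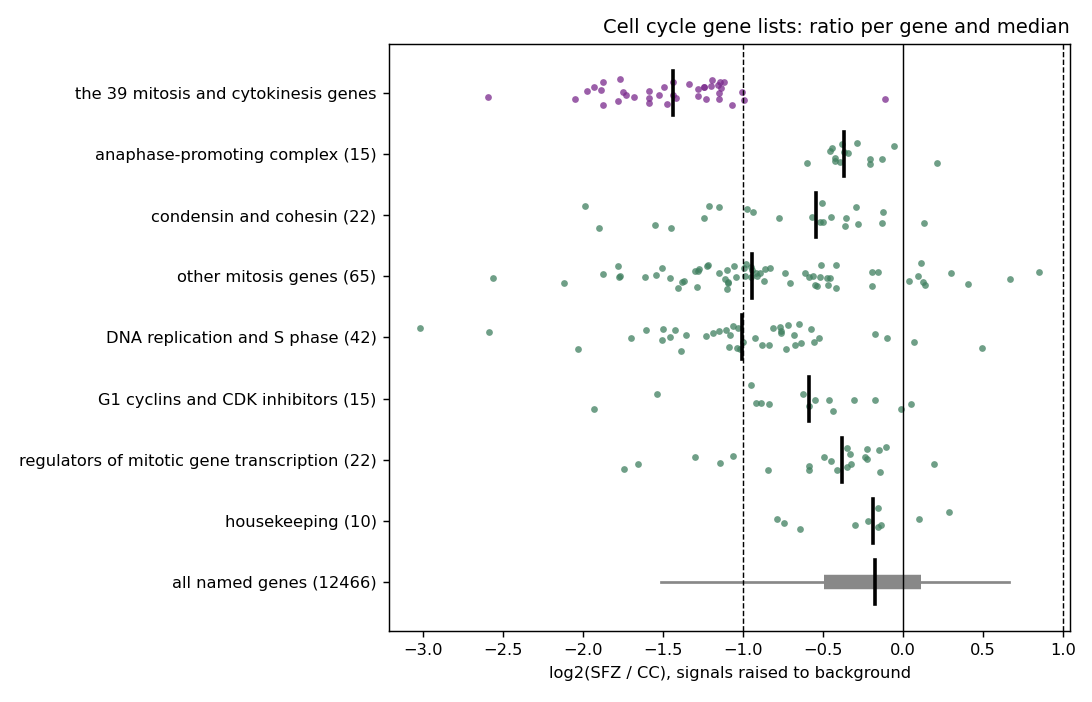
Log2 ratios of SFZ cells over CC, with signals raised to background, for the 39 genes and for other cell cycle lists, with 1 point per gene above background, a bar at each median and the number of genes in parentheses. For all named genes the thick line spans the interquartile range and the thin line the 5th to the 95th percentile. Medians are -1.44 for the 39 genes, -1.01 for DNA replication and -0.37 for the anaphase-promoting complex.

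The promoter elements were set beside the signals as a description. Of 33 of these genes with a promoter window and a signal, the 16 with a CHR core within 50 bases of the start and at least 2 CCAAT boxes had a median log2 ratio of -1.46, and all 16 passed in CC. The 6 genes with no CHR core so near and no CCAAT box had a median of -1.76, and all 6 passed as well. Among them are *Kif2c* and *Pttg1*, whose windows lie away from the 5′ end of the annotated gene. No test of a relation between these letters and the ratios was run. Outside the set, 87 genes above background had the CHR core near the start and at least 2 CCAAT boxes, and 10 of them, or 11.5%, passed in CC and none in SFZ cells. With a CHR core so near and 1 CCAAT box the share was 16.7%, or 18 of 108 genes. With such a core and no CCAAT box it was 12.3%, or 19 of 154. It was 8.05% among 3939 genes with CCAAT but no CHR core so near, 6.47% among 5423 genes with neither, and 7.36% over all 9711 genes with a window outside the set. The largest differences among the 10 genes were those of *Rnase4*, encoding a secreted ribonuclease, at 42.1 and 692, the amino acid transporter gene *Slc38a4* at 66.0 and 334, and *Epb41l3*, of the membrane skeleton, at 103 and 387. The others were *Asf1b*, *Kntc1*, *Fbxo5*, *Prkaca*, *Aspm*, *Ltbp1* and *Ckap2l*, of which *Kntc1* and *Ckap2l* are on the list of other mitosis genes. These 10 were named after their values were seen.

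Markers of other cell types also differed between the arrays. The chondrocyte label held on both, as *Col2a1* was at 8251 in SFZ cells against 9074 in CC and *Acan* at 7772 and 5588, and *Sox9*, their regulator, was at 902 and 1150. Of the 12 chondrocyte genes 3 were brighter in CC and the others in SFZ cells, with a median log2 ratio of 0.40, opposite in sign to that of the mitosis genes. The cartilage matrix genes *Matn1*, at 9989 and 2692, and *Col9a3*, at 7799 and 3668, passed in SFZ cells and none passed in CC. Of 9 genes of the joint surface list 1 passed in SFZ cells, the lubricin gene *Prg4* at 323 and 73.6, and 3 passed in CC, *Vcam1* at 35.7 and 354, *Dkk3* at 55.6 and 348 and *Thbs4* at 108 and 388. *Gdf5* was at 93.1 and 74.2, under the minimum. Of 18 skeletal muscle genes 15 passed in CC, with a summed signal of 351 in SFZ cells and 37445 in CC and *Actc1* at 28.7 and 8228. The muscle regulators *Myod1*, at 13.7 and 457, and *Myog*, at 14.7 and 2721, passed in CC, with SFZ signals under background. *Cdh15*, at 28.5 and 169, passed as well, while *Myf5*, *Myf6* and *Pax7* were under background on both arrays. Of 6 adipocyte genes 5 passed in CC, with sums of 1039 and 11395 and *Fabp4* at 42.7 and 6039. Of 10 macrophage and leukocyte genes 4 did, with sums of 583 and 2297, *Lyz2* at 232 and 1432, and *Ptprc* at 18.1, under background, and 29.8. None of 7 endothelial and none of 5 erythroid genes passed, and of 12 fibroblast genes 4 passed in CC. The part that such cells, or the shift in chondrocyte genes, have in the signals of the mitosis genes was not tested.

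The scale between the arrays changes how many of the 39 genes pass. The median of all genes above background was -0.21 as deposited and 0.02 after quantile normalization. Under that normalization 23 of the 39 genes passed in CC, with a median log2 ratio of -1.18, while 3.77% of all genes passed. The same 23 genes passed under each of 5 scalings. With 64 added to both signals 21 passed, and 3.78% of all genes. As deposited these were 36 and 5.41%. In no setting did any of the genes pass in SFZ cells, and single probe sets were not counted toward SFZ cells after rescaling.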

How the data were processed

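RNA of SFZ cells and CC was labelled from 100 ng of total RNA and hybridized to Affymetrix Mouse Genome arrays, with 1 array for each. The values the authors deposited are MAS5 signals, linear intensities per probe set. MAS5 is named in the submitters' processing notes, without a version, and no source used here gives the target intensity of its scaling or its detection calls. Signals were used as deposited. Of 45101 probe sets 64 were controls and were left out. The platform annotation gave 34945 probe sets with 1 gene, and the Entrez identifiers of 34741 matched RefSeq, where 0 symbols differed. A probe set annotated to *Foxm1* and other genes was not used.

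Each gene was read from the probe set whose log2 signals had the highest mean. The thresholds of 100 and 2 are those the study used for SFZ cells, applied in both directions. Signals at or under background gave bounds. Medians are over genes above background on at least 1 array. The genes named are all members, and of each other cell cycle list the 2 with the highest and the 2 with the lowest ratio, or fewer, and defining markers. The members and lists were chosen with earlier results of these data known. The number of arrays limits the precision, and no test was possible.

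RefSeq promoters of protein-coding genes were searched on both strands, and a gene counted where any of its windows held a motif. *Aurkb*, *Ccna2*, *Foxm1*, *Incenp*, *Kif20a* and *Tpx2* had none in the table used. The counting and the motif search were tested on simulated data. Alternatives were other scalings, thresholds, low-signal treatments and ways to combine probe sets. Python 3.11.15, numpy 2.4.6, pandas 2.3.3 and matplotlib 3.10.9 were used.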

Additional observations from a re-analysis of the deposited data

How the results depend on the processing

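No paired analysis was possible because each cell type has 1 array. No mitosis gene passed in SFZ cells under any of the 14 alternatives, counted by gene. Toward SFZ cells, single probe sets were counted only on signals as deposited and with the main thresholds. A *Tpx2* probe set at 156 in SFZ cells and 86.9 in CC had an SFZ/CC ratio of 1.80, which is over a threshold of 1.5. The 36 genes that passed in CC became 23 with quantile normalization, 21 with 64 added to both signals, 15 at a ratio over 3, 23 with the median of each gene's probe sets and 15 if all its probe sets must pass. Without probe sets whose identifiers end in _s_at, _x_at or _a_at, which can bind several transcripts, 32 genes had a probe set left, of which 23 had a CC signal over 100 and 22 passed. The 50 probe sets in CC became 24 with 64 added, 17 at a ratio over 3, 30 at a signal over 200 and 24 without those probe sets. The median log2 ratio of -1.44 became -1.25 with equal medians, -1.23 with equal trimmed means, -1.25 with the housekeeping median at 0, -1.18 with quantile normalization, -1.01 with 64 added, -1.30 with the median over probe sets and -1.31 without those probe sets. The 21 other mitosis genes became 10 with quantile normalization, 11 with 64 added, 7 at a ratio over 3, 10 at a signal over 200 and 13 if all probe sets must pass. The 19 DNA replication genes became 12 with equal medians or the housekeeping median at 0, 11 with equal trimmed means, 10 with quantile normalization, 10 with 64 added, 29 and 5 with the ratio threshold at 1.5 and 3, and 11 if all probe sets must pass. Other thresholds move counts by their construction. Under other scalings the median of the mitosis genes moved together with that of all genes above background. The first minus the second was -1.23 as deposited, with equal medians, with equal trimmed means and with the housekeeping median at 0. It was -1.205 with quantile normalization. Any further cause of the changed counts was not tested. The other alternatives kept these counts within 1.5 times. Signals near background, as for *Ttk*, *Nuf2* and *Foxm1*, limit what their ratios show.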
